A study of Mus musculus with 14 samples.

Results

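Epididymal fat of mice exposed to food restriction before birth was compared with that of controls, whatever the feeding during nursing. Single-channel Affymetrix arrays of total RNA were available for 14 ICR mice, all labelled male and 3 weeks old, and all 14 entered the comparison. The 9 restricted mice, chosen by sample titles that name undernutrition, were the 5 of UC and the 4 of UU. UC dams ate 50% less than matched controls during pregnancy and then ate freely while nursing, and UU dams were restricted by 50% in both periods. The 5 control mice (CC) had dams fed freely throughout. The labels give no litters, so each array was treated as an independent animal and p-values measure the spread between these samples.

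Epididymal fat is a white depot next to the testis and epididymis. Its adipocytes make and store triglyceride from fatty acids and glucose, and they lie among progenitors, blood vessels and macrophages. Food restriction of a pregnant rodent is a standard model of poor fetal growth, and the feeding of the nursing dam sets how far the pups catch up.

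Signals were on the linear scale of the array software, with each array scaled to 1 common trimmed mean. Differences are given as log2(signal + 32), restricted minus CC, with the standard error (SE), so that 1 is a 2-fold difference in signal plus 32. The brightest probe set stood for each gene, and 7436 genes remained after the dimmest 40% were left out. The median SE of the pooled difference was 0.19.

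The arrays differed in ways the groups do not give. Mean log2 levels of 8 adipocyte markers were 13.81 to 14.76 in CC, 13.90 to 14.82 in UC and 13.25 to 13.94 in UU. Adipocyte transcripts were thus bright on every array, which does not show how much other tissue was present. Gpx5, an epididymal glutathione peroxidase, had signals of 410 to 1155 on 4 arrays (CC replicates 2 and 4, UC replicates 2 and 5), while the other 10 had 5711 to 69624. Xist, the RNA of the silenced X chromosome, had signals of 3981 (CC replicate 2) and 5642.5 (UC replicate 5), and of at most 1324 on the remaining arrays. Degraded RNA raises the 3'/5' ratio, here the log2 signal of the 3' minus that of the 5' control probe sets for Actb and Gapdh. It averaged 0.71 ± 0.33 in CC, 1.22 ± 0.36 in UC and 1.15 ± 0.64 in UU (SD), and was highest in UC replicates 1 and 4 and UU replicate 3. The ratio was 0.48 higher in the restricted mice (exact permutation test over 2002 assignments, two-sided, p = 0.0624, adjusted p = 0.346 over this ratio and 14 marker levels, 15 measures in all). Summed signal of 13 skeletal muscle markers was 26548 in CC replicate 2 and 29804 in CC replicate 5. It was 2162 to 3011 in the other controls, 2268 to 4082 in UC and 3109 to 4854 in UU. The mean log2 level of these markers differed by -0.97, restricted minus CC (same permutation test, p = 0.134, adjusted p = 0.346). The part of muscle transcripts in the results was not tested.

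No gene passed the test of the 9 restricted mice against the 5 controls. Of 7436 genes, 0 (0%) had a limma adjusted p under 0.05, and the smallest adjusted p was 0.365. Without adjustment, 363 genes were higher in restricted mice at p under 0.05 (4.88%) and 289 lower (3.89%), 652 in all where 371.8 make up 5%. The median difference over all genes was 0.02, with 3947 above 0 and 3489 below.

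In 140 genes the difference had the same sign, at an unadjusted p under 0.05, in UC against CC and again in UU against CC. They were 91 higher (1.22%) and 49 lower (0.659%), with median pooled differences of 0.57 and -0.60. Taken alone, UC against CC had 651 genes at that threshold (8.75%) and UU against CC had 1218 (16.4%). Both comparisons share the CC arrays, so they are not independent of each other, and the larger of the 2 p-values was at an adjusted value of 1 for every gene. The count of lower genes was 32 without UC replicate 1, 25 without UC replicate 4 and 85 without UC replicate 5. Without the 3 arrays of highest 3'/5' ratio there were 36 higher genes, 32 of them among the 91, and 15 lower, 12 of them among the 49.

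The signals of the 9 restricted arrays lay wholly above those of the 5 CC arrays for 18 genes (0.242%) and wholly below for 5 (0.0672%). The genes above were Qtrt2, Gsta3, Cysrt1, Unc45a, Pelp1, Ahsa2, Oga, Cyp2c29, Hsph1, Dynll1, Arglu1, Emc6, Sf3a2, Ap4b1, Pigo, Ints11, Vapa and Alb. The genes below were Erp29, Nr4a1, Uap1, Gnb1 and Cab39. Of these 23 genes, 18 were among the 140, and those outside the 24 leading genes or the gene lists below are named after their values were seen. Other probe sets gave pooled differences of -0.24 for Arglu1 and -0.35 for Ap4b1. Those of Oga gave -0.16, -0.05 and -0.41, and its dimmest gave 0.99. They had the sign of the brightest for Dynll1 (0.54 and 0.25), Pigo (0.49 and 0.23) and Vapa (0.51 and 0.32). Leaving out 1 array frees a gene from 1 constraint, and the count above was 32, 31, 30, 31 and 33 without CC replicates 3 and 4 and UC replicates 2, 3 and 5. The count below was 18, 21, 12 and 11 without CC replicates 2, 3, 4 and 5, 9, 10 and 21 without UC replicates 2, 3 and 5, and 11 without either UU replicate 1 or UU replicate 4.

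**Figure D1:**
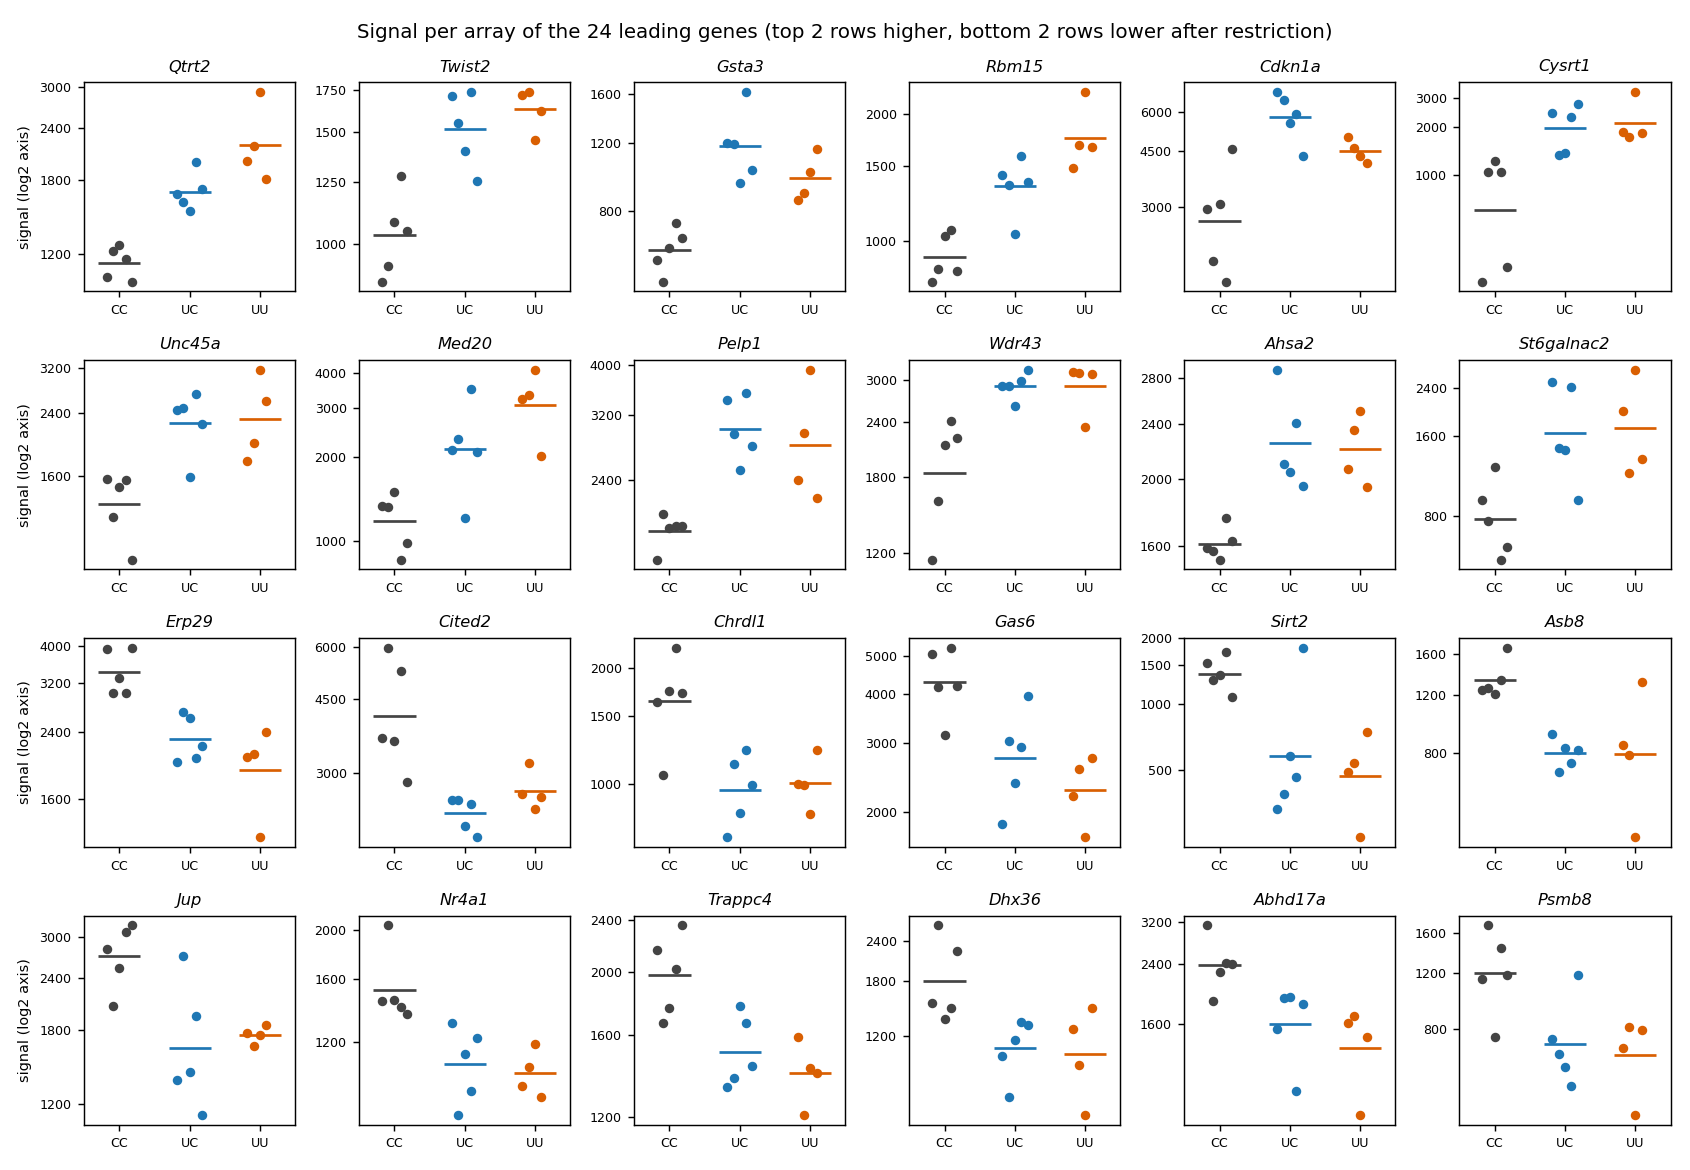
Signal on each of the 14 arrays (log2 axis) for the 12 higher and 12 lower genes of smallest pooled p among the 140, by group (CC n = 5, UC n = 5, UU n = 4). Points are arrays and bars are group means taken on the log2(signal + 32) scale; Qtrt2, Gsta3 and Erp29 show no overlap of restricted and CC arrays, while UC replicate 5 of Sirt2 lies above all CC arrays.

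The 24 leading genes were the 12 higher and the 12 lower genes of smallest pooled p among the 140, with limma adjusted p from 0.365 to 0.499. None was called, and all 24 kept their sign in the alternatives run, but not their size. With means over probe sets St6galnac2 went from 1.06 to 0.05, Gsta3 from 0.74 to 0.28, Pelp1 from 0.60 to 0.28, Wdr43 from 0.65 to 0.31, Cdkn1a from 0.93 to 0.48, Med20 from 1.07 to 0.60, Unc45a from 0.76 to 0.45 and Asb8 from -0.72 to -0.45. With the 3'/5' ratio in the model St6galnac2 was at 0.60, Pelp1 at 0.39, Erp29 at -0.45 and Abhd17a at -0.34. Since they were chosen by this contrast, their differences describe it and are no further evidence for it.

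Qtrt2, the leading higher gene of smallest pooled p, encodes the accessory subunit of the enzyme that places queuosine in transfer RNA. Its signal was 1059.7, 1225, 1261, 1170.3 and 1033 in CC, 1666, 1600.2, 1520.2, 1991 and 1712 in UC and 1995, 2169, 2920.5 and 1809.8 in UU. Every restricted mouse exceeded every control, and the difference was 0.71 ± 0.14 (adjusted p = 0.365), 0.55 in UC and 0.91 in UU. Rbm15, which guides the N6-adenosine methylation of messenger RNA, was at 917 ± 116 (SD, n = 5) in CC and 1543 ± 332 (SD, n = 9) in restricted mice. UC replicate 3 lay within the CC range and the other 8 restricted arrays above it, and the difference was 0.71 ± 0.15.

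Wdr43, a component of the complex that processes small ribosomal subunit RNA, was at 1900.1 ± 517 (SD, n = 5) in CC and 2921 ± 277 (SD, n = 9) in restricted mice, with UU replicate 3 (2345) the only restricted array not above the CC range. Pelp1, a coregulator of nuclear receptors that also takes part in ribosome assembly, was at 1918 ± 140.1 (SD, n = 5) in CC and 2962 ± 563 (SD, n = 9) in restricted mice, with no overlap. Med20, a subunit of the Mediator complex that links transcription factors to RNA polymerase II, was at 1201 ± 267 (SD, n = 5) in CC and 2656 ± 921 (SD, n = 9) in restricted mice. Its differences were 0.84 in UC and 1.36 in UU, and UC replicate 3 was below the highest control.

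Cdkn1a encodes p21, an inhibitor of cyclin-dependent kinases and a target of p53. Its signal was 2951, 2022, 3056, 1742 and 4563 in CC, 6933, 6529.5, 5511, 5918 and 4351 in UC and 4997, 4608, 4359 and 4119.5 in UU. CC replicate 5 reached into the restricted range, so 6 of 9 restricted arrays were above all controls, and the difference was 0.93 ± 0.20 (adjusted p = 0.365). CC replicates 2 and 4, the lowest in Cdkn1a, were also the controls low in Gpx5. Without the 4 arrays low in Gpx5 the difference was 0.57.

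Twist2 encodes a basic helix-loop-helix repressor of mesenchymal cells. Its signal was 872, 924, 1084, 1280.3 and 1048 in CC, 1708, 1549, 1401, 1734 and 1257 in UC and 1717, 1736, 1459.6 and 1622 in UU. Only UC replicate 5 fell within the CC range, and the difference was 0.59 ± 0.12, 0.54 in UC and 0.64 in UU. Gsta3, a glutathione S-transferase, was at 599, 525, 642, 745 and 682 in CC, 1196, 1193, 944, 1623 and 1023 in UC and 855, 891, 1007 and 1156 in UU. No restricted array overlapped a control, and the difference was 0.74 ± 0.16 (adjusted p = 0.365).

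Of the other leading higher genes, Unc45a and Ahsa2 encode partners of the Hsp90 chaperone. Unc45a, a myosin co-chaperone, was at 1356 ± 272 (SD, n = 5) in CC and 2323 ± 491 (SD, n = 9) in restricted mice. Ahsa2, a relative of the activator of the Hsp90 ATPase, was at 1613 ± 87.2 (SD, n = 5) in CC and 2251 ± 311 (SD, n = 9) in restricted mice. Both showed no overlap, with differences of 0.76 ± 0.17 and 0.46 ± 0.11. Cysrt1 had the largest pooled difference of the 24, 1.66 ± 0.36, and its CC signals were split, 220.3, 1043, 1236, 1056 and 271. St6galnac2, which adds sialic acid to glycoproteins, was at 815 ± 270.5 (SD, n = 5) in CC and 1777 ± 683 (SD, n = 9) in restricted mice, a difference of 1.06 ± 0.26 with 7 of 9 restricted arrays above all controls.

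A gene with several probe sets has a check that the choice of leading genes did not use, although the same RNA was read. Of the 91 higher genes, 40 had another probe set above the same brightness limit, and the brightest of these had the same sign in both UC and UU for 15 (37.5%), opposite signs in both for 11, and mixed signs for 14. Its median pooled difference over the 40 genes was 0.00, against 0.54 for the probe set that stood for the gene. Of the 49 lower genes only 7 had such a second probe set, and 6 of them (85.7%) had the same sign in both, with medians of -0.42 and -0.68. Eif4ebp2, 1 of the 6, had further bright probe sets at -0.35 and 0.26. Probe sets of lower genes below the limit lay on both sides of 0. They gave 0.02 for Adipor1, 0.47 for BC005624, 0.22 for Gak, 0.65 for Nck1, 0.19 for Tmem43 and 0.34 for Trappc4. For Cdh5, Chrdl1, Dpm1, Eif4ebp2 and Il6st they gave -0.42, -0.54, -0.04, -0.17 and -0.77. Over all tested genes whose main probe set was above 0 in both UC and UU, whatever the p, the second probe set was above 0 in both for 370 of 982 (37.7%). For genes below 0 in both it was 280 of 510 (54.9%). The share for the higher genes was therefore that of all genes of their sign.

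**Figure D2:**
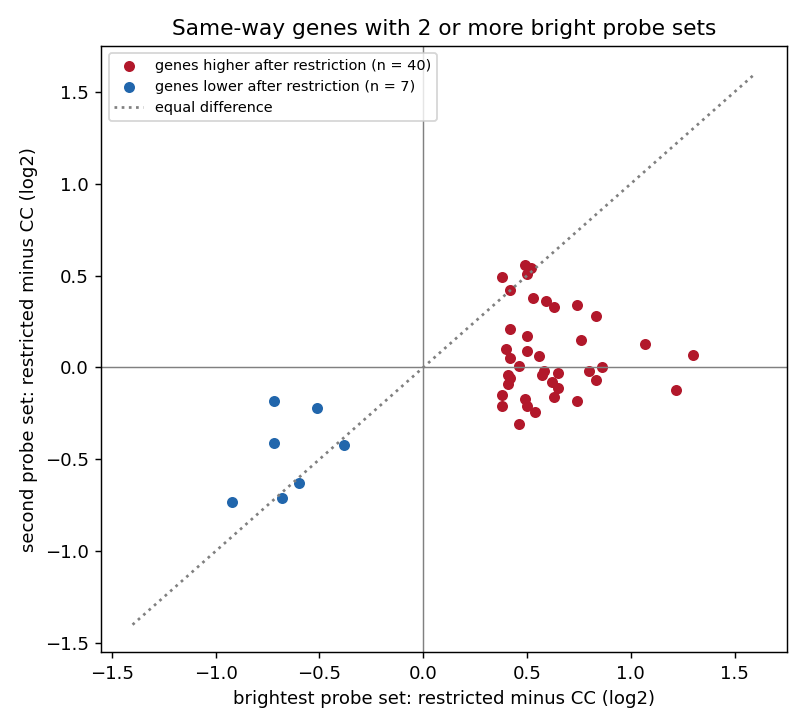
Pooled log2 difference, restricted minus CC, of the brightest (horizontal) and the second (vertical) probe set of the same gene, for the 40 higher and 7 lower genes of the 140 that have both above the brightness limit. The higher genes scatter around 0 on the vertical axis (median 0.00), and all 7 lower genes lie below 0.

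Among the leading higher genes, second probe sets above the limit gave -0.18 for Gsta3, 0.15 for Unc45a, 0.13 for Med20 and -0.03 for Wdr43. Below the limit they gave 0.25 for Qtrt2, 0.04 for Cdkn1a, -0.10 for Cysrt1, -0.04 for Pelp1 and -0.96 for St6galnac2. The values above for these genes are thus those of 1 probe set each. Twist2, Rbm15 and Ahsa2 had no second probe set. Among the leading lower genes, second probe sets above the limit gave -0.71 for Cited2, -0.41 for Dhx36 and -0.18 for Asb8, and those below it -0.54 for Chrdl1 and 0.34 for Trappc4.

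Cited2, a coregulator that binds CBP and p300 and restrains hypoxia signalling, was thus lower by both of its probe sets. Its signal was 3644, 5965, 3576, 5236 and 2870 in CC, 2594, 2597, 2257, 2540 and 2115 in UC and 2678, 3169, 2474 and 2645 in UU. Every UC array was below every control and UU replicate 2 was the only restricted array within the CC range. The difference was -0.68 ± 0.16 (adjusted p = 0.381), -0.76 in UC and -0.58 in UU, and that of the second probe set was -0.81 in UC and -0.58 in UU. CC replicates 2 and 4 were the highest controls, and without the 4 arrays low in Gpx5 the difference was -0.35.

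Erp29, a chaperone of the endoplasmic reticulum lumen, was at 3943, 3028, 3314, 3023 and 3965 in CC, 1999, 2696, 2595, 2054 and 2204 in UC and 2059.8, 2098, 1273 and 2388 in UU. No array overlapped, and the difference was -0.69 ± 0.16 (adjusted p = 0.365). Nr4a1, an orphan nuclear receptor that is induced within minutes by many stimuli, was at 1445, 2037, 1453, 1405 and 1362 in CC, 1306, 861, 1139, 960.5 and 1223 in UC and 984, 1071, 1192 and 937 in UU. It did not overlap either, with a difference of -0.50 ± 0.14 (adjusted p = 0.455).

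Sirt2, a deacetylase that uses NAD, had the largest difference of the 12 leading lower genes. Its signal was 1538, 1282, 1353, 1721 and 1074 in CC, 331, 386, 580.5, 464 and 1809.9 in UC and 486, 536, 245 and 741 in UU. UC replicate 5, 1 of the 2 arrays with Xist signal, was above all controls and the other 8 restricted arrays were below them all. The difference was -1.33 ± 0.33 (adjusted p = 0.427), and without UC replicate 5 the adjusted p was 0.0336. Sirt2 was then the 1 gene called in either direction, and this is the 1 alternative of those run in which any gene was called. The brightness limit was set on the mean of all arrays, and the mean log2 level of the restricted arrays alone lay below it. Sirt2 was thus tested because of its CC signals, the group where it was high.

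Secreted and signalling proteins among the lower genes were Gas6 and Chrdl1. Gas6, the ligand of the receptors Tyro3, Axl and Mertk, was at 4358 ± 839 (SD, n = 5) in CC and 2599.7 ± 675 (SD, n = 9) in restricted mice, a difference of -0.76 ± 0.18 with 8 of 9 restricted arrays below all controls. Chrdl1, an antagonist of bone morphogenetic proteins, was at 1684 ± 428 (SD, n = 5) in CC and 995 ± 174 (SD, n = 9) in restricted mice and the difference was -0.72 ± 0.17, with 6 of 9 below. CC replicate 2 was the low control in Chrdl1.

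The remaining lower genes were Psmb8, Asb8, Trappc4, Abhd17a, Dhx36 and Jup. Psmb8, a subunit of the immunoproteasome, was at 1245 ± 349.8 (SD, n = 5) in CC and 719.8 ± 214 (SD, n = 9) in restricted mice, and Asb8, a substrate adaptor of a ubiquitin ligase, at 1345 ± 189.6 (SD, n = 5) in CC and 824 ± 228 (SD, n = 9) in restricted mice. Trappc4, a vesicle tethering subunit, differed by -0.43 ± 0.12, Abhd17a, which removes palmitate from proteins, by -0.67 ± 0.19, and Dhx36, a helicase of G-quadruplexes, by -0.72 ± 0.21. Jup, the junction protein plakoglobin, was at 2736 ± 461 (SD, n = 5) in CC and 1734 ± 447 (SD, n = 9) in restricted mice, with UC replicate 2 within the CC range and the other 8 below it.

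All 24 kept their sign without the 3 arrays of highest 3'/5' ratio and with the ratio as a covariate, and 20 of 24 were nearer 0 in each case. With the liver marker level as a covariate 14 were nearer 0.

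Gene lists written from general knowledge were read by their medians and counts beside those of all genes. Of all 7436 genes, 2452 were above 0 in both UC and UU and 2091 below 0 in both. The 91 and the 49 were 1.22% and 0.659% of all genes. Lists are the 6 of highest and the 6 of lowest median among those of the 39 function lists with 5 or more members tested, with 7 more kept whatever their median, and the choice by median makes the sizes of the first 12 a description. Fewer cells of a type and less RNA per cell cannot be told apart in these bulk samples.

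**Figure D3:**
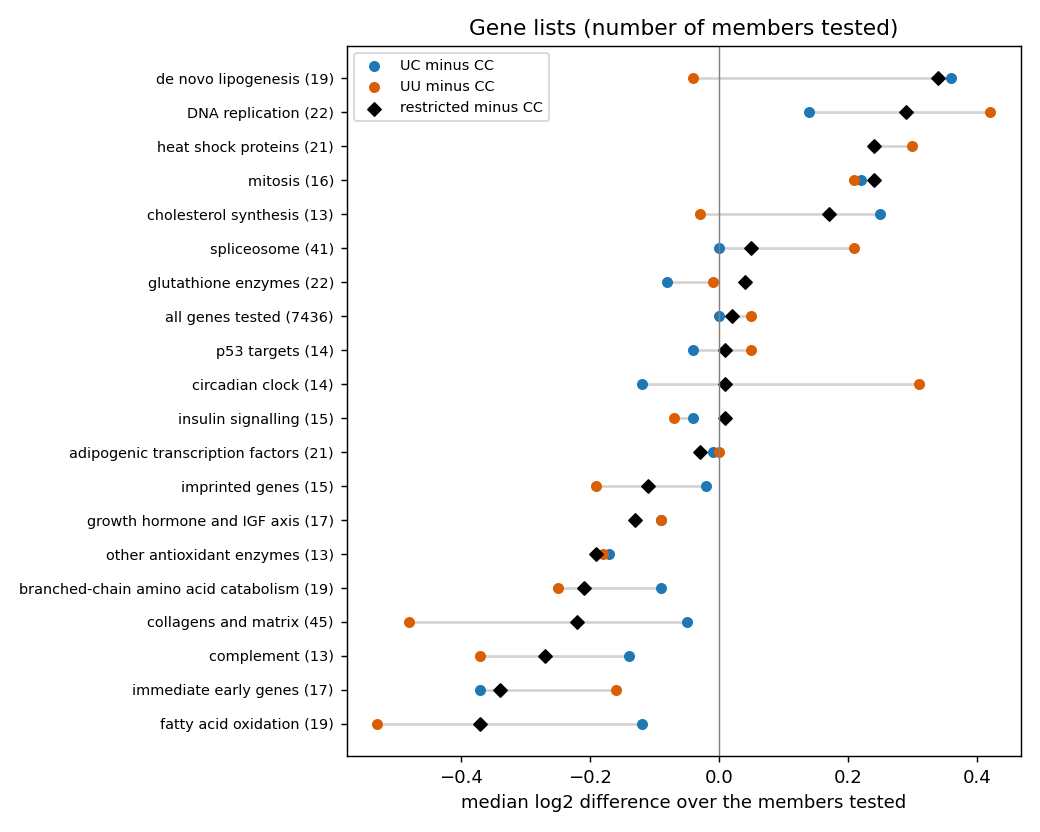
Median log2 difference over the tested members of each list, for restricted minus CC (diamonds), UC minus CC and UU minus CC (circles), beside all 7436 genes; numbers tested are in brackets. Heat shock proteins, DNA replication and mitosis lie right of 0 in all 3 comparisons, and fatty acid oxidation, immediate early genes, complement and collagens left of it.

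Heat shock proteins fold new and damaged proteins and are induced by heat shock factor when unfolded protein builds up. Of 21 members tested 17 were above 0 in the pooled difference, 13 above 0 in both UC and UU and 0 below 0 in both, with a median of 0.24 (0.24 in UC, 0.30 in UU) against 0.02 over all genes. At an unadjusted p under 0.05, 4 members were higher and 0 lower, where 4.88% and 3.89% of all genes were, and 3 were among the 91. None was called.

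Those 3 were Hsph1, Chordc1 and Hspa8. Hsph1, the Hsp110 nucleotide exchange factor, was at 2116, 911, 2479, 2171 and 2032 in CC, 2819.6, 3392, 2891, 2692 and 2649 in UC and 3562, 3324, 4771 and 2824 in UU. No restricted array overlapped the controls, CC replicate 2 was far below the other 4, and the difference was 0.77 ± 0.21 (adjusted p = 0.455). Its dimmer second probe set gave 0.47. Chordc1, an Hsp90 partner, was at 3092, 1955, 3025, 2483 and 2391 in CC, 3203, 3619.6, 3846, 4152 and 2743 in UC and 3792, 4314, 5793 and 3329 in UU. Only UC replicate 5 was within the CC range, and the difference was 0.56 ± 0.16 (adjusted p = 0.499).

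Hspa8, the constitutive Hsp70, was at 34354, 36150, 42222, 33286 and 34285 in CC, 46763, 50788, 41139, 47835 and 50265 in UC and 50501, 39229.8, 54247 and 42769 in UU on its brightest probe set. That probe set gave 0.38 ± 0.12, while the other 3 gave -0.19, -0.21 and -0.17. Hsp90aa1, the inducible Hsp90, gave 0.31 ± 0.14, and -0.21 with the mean of its probe sets. The median of the list was then -0.01, so its position above 0 holds for the brightest probe sets and not for means over probe sets.

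**Figure D4:**
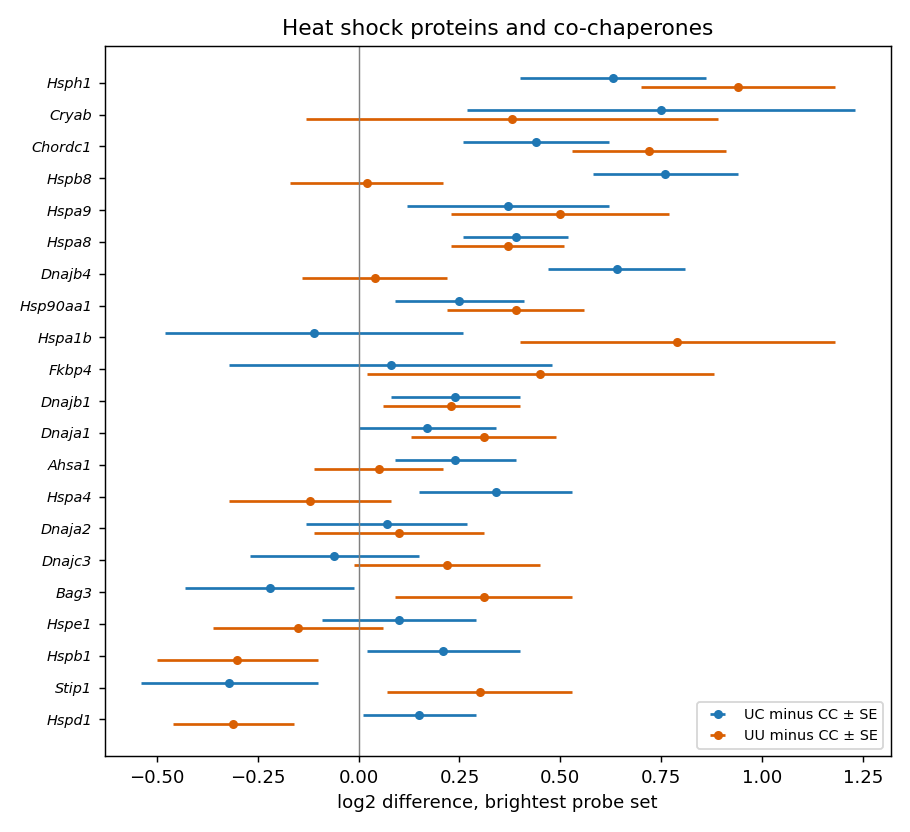
Log2 difference ± SE of UC minus CC (n = 5 and 5) and UU minus CC (n = 4 and 5) for the 21 heat shock list members tested, brightest probe set each, ordered by the pooled difference. Hsph1, Chordc1, Hspa8, Hsp90aa1, Hspa9 and Dnajb1 lie above 0 in both groups by more than their SE, while Hspb8 and Dnajb4, among others, do so in UC and not in UU.

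Heat shock factor binds inverted repeats of GAA, and gene start regions were searched for them, to set the letters beside the values. The motif was GAA, any 2 bases, TTC, any 2 bases and GAA, on either strand, in RefSeq windows (GRCm38.p6) of 250 bases before to 50 after each gene's start. It occurred in 198 of 32851 windows (0.603%) and in 39 of the 6040 tested genes with a window (0.646%). Of the 21 list members 17 had a window and 4 held the motif, namely Hsph1, Chordc1, Hspd1 and Hspe1, of which the last 2 share a region between their starts. The windows of Hsph1 (chr5:149636266-149636565, minus strand) and Chordc1 (chr9:18292017-18292316, plus strand) are shown because both genes were higher in UC and in UU, with the motif in capitals, which in Chordc1 is 3 overlapping matches.
Hsph1: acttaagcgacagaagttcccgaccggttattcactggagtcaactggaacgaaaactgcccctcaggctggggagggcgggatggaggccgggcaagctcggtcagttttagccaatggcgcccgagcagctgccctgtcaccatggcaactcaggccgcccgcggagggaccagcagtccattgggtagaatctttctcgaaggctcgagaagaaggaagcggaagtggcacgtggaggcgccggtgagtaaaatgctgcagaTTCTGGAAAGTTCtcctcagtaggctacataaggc
Chordc1: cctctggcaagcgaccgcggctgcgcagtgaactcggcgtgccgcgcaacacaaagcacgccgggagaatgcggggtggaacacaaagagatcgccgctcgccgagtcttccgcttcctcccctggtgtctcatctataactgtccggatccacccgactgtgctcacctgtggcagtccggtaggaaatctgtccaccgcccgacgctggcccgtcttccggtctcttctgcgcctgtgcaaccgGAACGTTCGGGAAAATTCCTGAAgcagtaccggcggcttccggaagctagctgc
Hsph1 has 2 listed starts. Its motif begins 15 bases after the start of the window shown and 36 bases after the other. In Chordc1 the matches run from 4 bases before the start to 18 after. Hspd1 and Hspe1, the mitochondrial chaperonin pair, hold it too, and their differences were -0.06 ± 0.15 and -0.01 ± 0.18. The median difference was 0.28 over the 4 genes with the motif and 0.15 over the 13 without. A match is a stretch of letters and shows no binding.

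The lists of DNA replication and mitosis had medians above 0 in UC and in UU. DNA replication genes, which license and copy the genome, had 17 of 22 members above 0, with 14 above and 5 below 0 in both groups, and a median of 0.29 (0.14 in UC, 0.42 in UU). At an unadjusted p under 0.05, 7 were higher and 0 lower, where 4.88% and 3.89% of all genes were. Among the 91, which are 1.22% of all genes, were 2 members. Pola1, the catalytic subunit of DNA polymerase alpha, was at 764, 691, 823, 558 and 984 in CC, 1116, 803, 1018, 1046 and 1113 in UC and 1079, 1024, 1126 and 858 in UU. Of the restricted arrays 7 of 9 were above all controls, and the difference was 0.42 ± 0.14 (adjusted p = 0.533). Rpa1, a single-stranded DNA binding protein, was at 5355 ± 563 (SD, n = 5) in CC and 7305 ± 1534 (SD, n = 9) in restricted mice, and its second probe set gave -0.06. Mcm10, a replication initiation factor, was at 821 ± 53.1 (SD, n = 5) in CC and 1066 ± 166 (SD, n = 9) in restricted mice, with 8 of 9 restricted arrays above all controls and 0.33 from its dimmer second probe set.

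Mitosis genes had 15 of 16 members above 0, all 15 of them above 0 in both UC and UU, and a median of 0.24 (0.22 and 0.21). Cks2, a partner of cyclin-dependent kinases, gave 0.50 ± 0.23 and 0.27 on its second probe set. Ccna2, cyclin A2, gave 0.42 ± 0.19 and 0.25, and Nusap1, a spindle protein, 0.33 ± 0.16 and -0.23. None of the 16 was among the 140. The medians of both lists stayed above 0 in the alternatives run, from 0.11 to 0.32 for replication and from 0.13 to 0.42 for mitosis. Spliceosome genes had a median of 0.05 over 41 members, 24 above 0, and -0.03 with the mean of probe sets. Sf3a2, a U2 particle subunit, was at 4640.2 ± 608 (SD, n = 5) in CC and 6643 ± 1269 (SD, n = 9) in restricted mice with no overlap, and Srsf10, a splicing regulator, at 2478 ± 741 (SD, n = 5) in CC and 4409.8 ± 1346 (SD, n = 9) in restricted mice. Their other probe sets gave 0.09 for Sf3a2 and 0.10, -0.10 and -0.07 for Srsf10. Snrpd3, a core particle protein, gave 0.53 ± 0.18, with -0.23 and 0.02 on its other probe sets.

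Lipid synthesis lay above 0 in the pooled comparison but not after both kinds of nursing. De novo lipogenesis, the making of fatty acids from acetyl-CoA, had 16 of 19 members above 0 and a median of 0.34, which was 0.36 in UC and -0.04 in UU. Only 7 were above 0 in both, and 0 were among the 140. Scd1, the stearoyl-CoA desaturase, gave 0.34 ± 0.16, Srebf1, its transcriptional activator, 0.51 ± 0.27, and Thrsp, a lipogenic protein of fat and liver, 0.62 ± 0.36. Thrsp was at 1.06 in UC and 0.07 in UU. Second probe sets gave -0.02 for Scd1 and 0.05 for Thrsp. Without the 4 arrays low in Gpx5 the median of the list was 0.10, and with means over probe sets 0.17.

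Cholesterol synthesis had a median of 0.17 with 10 of 13 members above 0, which was 0.25 in UC and -0.03 in UU, -0.10 without the 4 arrays low in Gpx5 and 0.08 with means over probe sets. Dhcr7, its last enzyme, gave 0.52 ± 0.32, 0.95 in UC and -0.02 in UU. Fdft1, the squalene synthase, gave -0.20 ± 0.12 and Srebf2, the regulator of the pathway, -0.30 ± 0.23.

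Fatty acid oxidation, the mitochondrial and peroxisomal breakdown of fatty acids, had the lowest median of the function lists with 5 or more members tested. Of 19 members 2 were above 0 and 17 below, 13 below 0 in both UC and UU, with a median of -0.37 (-0.12 in UC, -0.53 in UU) and 1 member among the 49. That gene was Ehhadh, the peroxisomal bifunctional enzyme, at 1392, 2719.6, 1101, 1490.2 and 1215 in CC, 707, 1436, 1023, 528 and 777 in UC and 809, 902, 843 and 1032 in UU. Of the restricted arrays 8 of 9 were below all controls, CC replicate 2 was the highest control, and the difference was -0.77 ± 0.23 (adjusted p = 0.499). Crat, which shuttles acetyl groups to carnitine, gave -0.54 ± 0.24 and Cpt1a, which loads fatty acids for mitochondrial entry, -0.37 ± 0.17. The dimmer probe set of Crat gave 0.30, and the other 2 of Cpt1a 0.01 and -0.21. Without CC replicate 2 the median of the list was -0.15, -0.18 with the 3'/5' ratio in the model and -0.20 with means over probe sets.

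Breakdown of branched-chain amino acids had a median of -0.21, with 15 of 19 members below 0 and 13 below 0 in both groups. It was -0.05 without the 4 arrays low in Gpx5, and -0.11 both with the 3'/5' ratio in the model and without the 3 arrays where it was highest. Pccb, a propionyl-CoA carboxylase subunit, gave -0.36 ± 0.16 and Hsd17b10 -0.48 ± 0.25, which became -0.13 and -0.09 with the ratio in the model. Mmut, the methylmalonyl-CoA mutase at the end of the same route, went the other way at 0.41 ± 0.14, with 7 of 9 restricted arrays above all controls and 0.08 on its second bright probe set. Antioxidant enzymes outside the glutathione system had 8 of 13 members below 0 and a median of -0.19. The peroxiredoxins Prdx2 and Prdx3 gave -0.34 ± 0.13 and -0.52 ± 0.22, and Sod3, the extracellular superoxide dismutase, -0.77 ± 0.40, which was -0.17 in UC and -1.51 in UU.

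Immediate early genes, the transcription factors and feedback proteins that a stimulus switches on first, had 14 of 17 members below 0 and 10 below 0 in both groups. The median was -0.34 (-0.37 in UC, -0.16 in UU). At an unadjusted p under 0.05, 4 members were lower and 0 higher, where 3.89% and 4.88% of all genes were. Nr4a1 was the 1 among the 49. Klf4, a zinc finger factor, gave -0.43 ± 0.18 with -0.06 on its second probe set, and Dusp1, the phosphatase that ends MAP kinase signals, -0.48 ± 0.22. CC replicate 2 was the highest control in Nr4a1 and in Dusp1. Without CC replicate 2 the median was -0.18, and -0.11 with the 3'/5' ratio in the model.

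Matrix and complement lists had lower medians in UU than in UC, a difference that was not tested. Collagens and other matrix genes had 36 of 45 members below 0 and a median of -0.22, which was -0.05 in UC and -0.48 in UU, with 0 among the 140. Col14a1, a fibril-associated collagen, gave -0.39 ± 0.15 and -0.37 on its second probe set. Lama4, a laminin of vessel basement membranes, gave -0.75 ± 0.30 and -0.38, and Fn1, fibronectin, -0.79 ± 0.33 and -0.37. Fibroblast and progenitor markers had a mean log2 level of 11.51 ± 0.21 in CC, 11.20 ± 0.18 in UC and 11.25 ± 0.22 in UU (SD), -0.29 in restricted mice against CC (exact permutation test, two-sided, p = 0.016, adjusted p = 0.24 over the 15 measures), and their part in these values was not tested.

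Complement genes had 9 of 13 members below 0 and a median of -0.27 (-0.14 and -0.37), 0.00 without CC replicate 2, -0.16 without the 3 high-ratio arrays and -0.45 with means over probe sets. C1ra, a protease of the classical pathway, was among the 49, at 2278, 4388, 1792, 2251 and 1833 in CC, 1342, 1192, 1742, 1153 and 2391 in UC and 965, 1271, 743 and 1766 in UU. CC replicate 2 was far above the other controls, 8 of 9 restricted arrays were below all controls, and the difference was -0.82 ± 0.25 (adjusted p = 0.517). Cfb and C2, of the alternative and classical pathways, gave -0.68 ± 0.30 and -0.61 ± 0.28, with C2 at -0.20 in UC and -1.11 in UU.

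The other lists kept for their place in growth and metabolism had medians from -0.13 to 0.04. Means over probe sets gave -0.32 for the growth hormone and IGF axis, -0.27 for adipogenic factors and -0.20 for imprinted genes. Insulin signalling had a median of 0.01 over 15 members. Foxo1, a transcription factor that insulin keeps out of the nucleus, gave 0.45 ± 0.17, with 0.10 and 0.16 on its other bright probe sets. Pik3r1 and Pik3ca, the regulatory and catalytic subunits of phosphatidylinositol 3-kinase, gave -0.50 ± 0.26 and 0.41 ± 0.24, and the other probe sets of Pik3r1 gave -0.32 and -0.94.

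The growth hormone and IGF axis had a median of -0.13 over 17 members and imprinted genes one of -0.11 over 15. Igf2, an imprinted fetal growth factor in both lists, was at 1838, 1882, 2028, 2822 and 2129 in CC, 4554, 2419.9, 3481, 2957 and 1763 in UC and 2605, 3549, 4814 and 2879 in UU. Of the restricted arrays 6 of 9 were above all controls and 1 below, the difference was 0.54 ± 0.21 (adjusted p = 0.542), and its dim second probe set gave -0.25. Igfbp6, an IGF binding protein, gave -0.61 ± 0.27. Stat5b, which carries growth hormone signals, was at 1075 ± 44.5 (SD, n = 5) in CC and 805 ± 283 (SD, n = 9) in restricted mice, with UU replicate 1 above and the other 8 restricted arrays below all controls. Gnas, an imprinted G protein subunit, was lower than all controls in 8 of 9 restricted arrays, at -0.32 ± 0.14, and Cdkn1c, an imprinted cell cycle inhibitor, gave -0.55 ± 0.24.

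Adipogenic transcription factors had a median of -0.03 over 21 members, with 9 above 0 and 12 below. Zfp423, a preadipocyte determinant, gave -0.78 ± 0.44 and Mest, an imprinted gene linked to fat expansion, -0.97 ± 0.57. Mest was at 0.06 in UC and -2.26 in UU and Zfp423 at -0.26 in UC and -1.42 in UU, and UU minus UC was -2.32 ± 0.38 and -1.16 ± 0.46, differences that were not tested. p53 targets had a median of 0.01 over 14, with Cdkn1a the 1 member among the 140, Plk2, a stress-induced kinase, at -0.73 ± 0.32 and Rrm2b, a ribonucleotide reductase subunit, at 0.32 ± 0.18.

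Circadian clock genes had a median of 0.01 over 14 members, which was -0.12 in UC and 0.31 in UU, and 0.17 over all without the 4 arrays low in Gpx5. Hlf, a clock output factor, gave 0.40 ± 0.16, Per1 -0.47 ± 0.26 (-0.83 in UC and -0.02 in UU) and Per2 0.41 ± 0.25 (0.05 in UC and 0.86 in UU), so that these 2 period genes lay on opposite sides. Glutathione enzymes had a median of 0.04 over 22 members (-0.15 without CC replicate 2), with Gsta3 the 1 member among the 140. Gpx3, the secreted glutathione peroxidase, was at 11674 ± 2876 (SD, n = 5) in CC and 7518 ± 2079 (SD, n = 9) in restricted mice, a difference of -0.65 ± 0.21, and Gpx8, its relative in the endoplasmic reticulum, at -0.42 ± 0.17.

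Of the named genes of these lists, other probe sets not given above had the sign of the brightest for Hsd17b10, Sod3, Stat5b, Hlf, Per2 and Pik3ca and for the dim one of Foxo1. They had the opposite sign for Prdx2, Srebf2 and the dim one of Mmut, and for 2 of 3 in Fdft1 and in Gnas.

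Transcripts of other cell types differed along with some of these results. Some liver transcripts had higher signals in the restricted mice and others lower. Of 16 liver markers 14 were on the array and 5 bright enough to test, and their mean log2 level was 8.74 ± 0.27 in CC, 9.96 ± 1.46 in UC and 9.19 ± 0.14 in UU (SD). It was 0.88 higher in restricted mice than in controls (p = 0.0779 in the two-sided exact permutation test, adjusted p = 0.346). The summed signal was 45032 to 87610 in CC, 22249 to 159189 in UC and 38300 to 53012 in UU, with no marker at 0. Hp and Cyp2e1, which fat makes too, carry most of that sum, and Hp gave -1.15 ± 0.37.

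Alb, the albumin transcript, was at 824, 550.4, 707, 962 and 725 in CC, 1758, 25660.3, 1324, 3190.5 and 1434 in UC and 1262, 1022, 1520.4 and 1349 in UU. All 9 restricted arrays were above all controls, and the difference of 1.45 ± 0.57 (adjusted p = 0.542) takes in UC replicate 2, far above all other arrays. Ttr, the transthyretin of liver and choroid plexus, was at 796, 94.6, 281, 38.0 and 375 in CC, 6491, 32323, 1079, 5663 and 361 in UC and 1228, 894, 1224 and 903 in UU, with 8 of 9 above and a difference of 3.07 ± 0.86 (adjusted p = 0.499). Other genes made in liver, named after their values were seen, were also among the 91. Cyp2c29, a cytochrome P450, gave 1.29 ± 0.34, Pzp, a protease inhibitor of plasma, 2.52 ± 0.66 and Uox, the urate oxidase, 0.63 ± 0.21. These genes were picked from the 91, so their higher signals follow from that choice. The brightness limit was set on the mean of all arrays, restricted ones included. A gene dim in CC could thus be tested because of its signals in restricted mice. Ttr, with mean signals of 316.7 in CC and 5574.1 in restricted mice, was such a gene. A gene dim in restricted mice could likewise be tested because of its CC signals, as Sirt2 was. How far the limit favoured genes of either direction was not tested. With the liver marker level as a covariate 91 genes were again higher in both, 46 of them shared with the 91 before, and 39 were lower, 18 of them shared with the 49. The source of these transcripts was not tested.

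**Figure D5:**
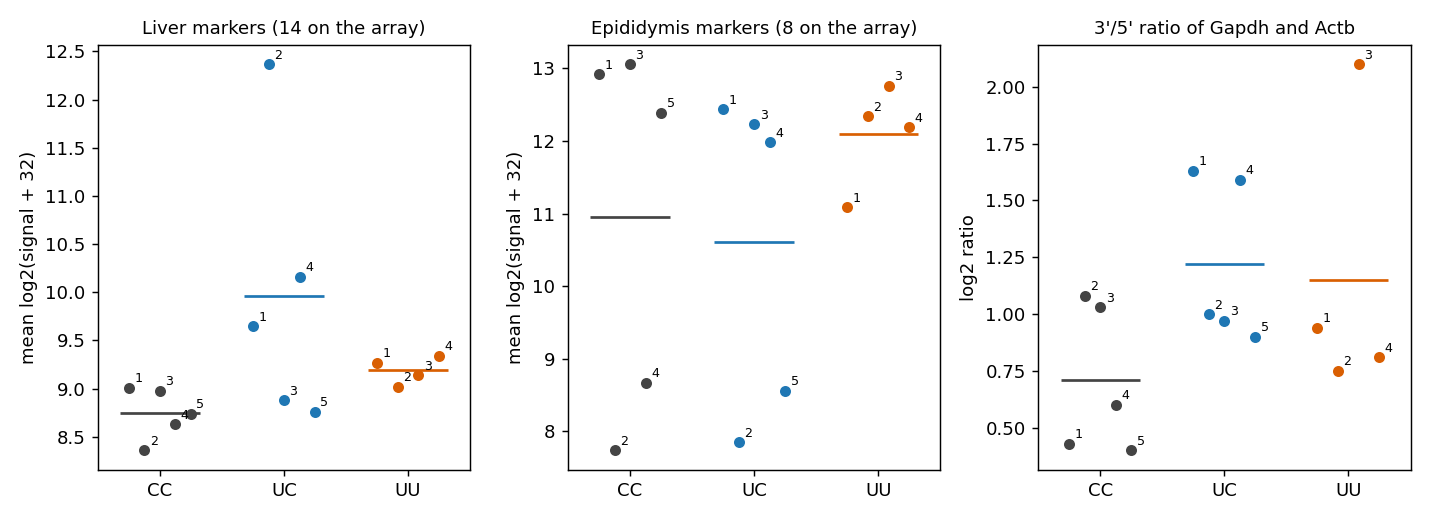
Mean log2(signal + 32) of the liver and the epididymis markers on the array and the log2 3'/5' ratio of Gapdh and Actb on each array, by group, with replicate numbers beside the points and group means as bars. UC replicate 2 is highest in liver markers, CC replicates 2 and 4 and UC replicates 2 and 5 are low in epididymis markers, and UC replicates 1 and 4 and UU replicate 3 are highest in the 3'/5' ratio.

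Endothelial markers had 10 of 12 tested members below 0 and a median of -0.21 (0.02 in UC, -0.37 in UU). Of the 12, 6 were below 0 in both UC and UU and 1 above 0 in both. Among the 49, which are 0.659% of all genes, were 2 members. Pecam1, the adhesion receptor CD31, was at 1818, 1798, 1606, 2853 and 1690.2 in CC, 876, 1618, 1292, 572 and 1853 in UC and 1192, 956, 596 and 1363 in UU. Cdh5, the cadherin of endothelial junctions, was at 2555, 3790.2, 2063, 4399 and 2851 in CC, 574, 2567, 1729, 1228 and 2802 in UC and 1695, 1982, 1551 and 1857 in UU. In each, 7 of 9 restricted arrays were below all controls, and the differences were -0.82 ± 0.26 and -0.87 ± 0.29 (adjusted p = 0.517 and 0.533). Summed endothelial signal was 21607 to 36542 in CC, 19991 to 29676 in UC and 14442 to 21483 in UU.

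Macrophage markers had 18 of 19 tested members below 0, 12 of them below 0 in both groups, and a median of -0.51, which was -0.12 in UC and -1.02 in UU. None was among the 140. Lyz2, the macrophage lysozyme, gave -1.19 ± 0.46, Fcgr3, an immunoglobulin receptor, -0.69 ± 0.26 and Lgmn, a lysosomal protease, -0.62 ± 0.22. Their summed signal was 60849 to 166467 in CC, 64512 to 181613 in UC and 29264 to 53702 in UU. Epithelial markers had 18 of 22 tested members above 0 and a median of 0.27, with opposite medians of -0.31 in UC and 1 in UU, and epididymis markers 3 of 7 above 0 and medians of -0.51 and 1.51. Summed epididymis signal was 4535 to 145480 in CC, 5645 to 128772 in UC and 35172 to 131992 in UU, and the part of these tissues in the results was not tested.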

How the data were processed

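RNA of epididymal fat from 14 mice (9 restricted, 5 CC) was measured on single-channel Affymetrix arrays, and groups were taken from sample titles. The authors deposited intensity values of each probe set, on a linear scale. The submitters' processing notes name GCOS 1.3 and MAS5. The mean signal after trimming 2% at each end was equal on all arrays. Of 22690 probe sets 20380 had 1 gene symbol, 691 several and 1555 none in the platform annotation, and 64 were controls. Symbols were updated through Entrez identifiers for 20351. Each of 12393 genes was represented by its brightest probe set (mean of the 14 arrays), values were taken as log2(signal + 32), and the dimmest 40% of genes were left out.

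The 9 restricted arrays were fitted against the 5 CC arrays with limma 3.58.1 under R 4.3.3 (two-sided, with a mean-variance trend and 12 degrees of freedom), and genes were called at a Benjamini-Hochberg adjusted p under 0.05 over all 7436 genes. A model of 3 groups (11 degrees of freedom) gave UC and UU each against CC. Signals are mean ± SD. The number of arrays limits the precision. The fits were tested on simulated data. The pooled comparison, the gene lists and the rule for naming genes were chosen with earlier results of these data known. The rule took the 12 higher and 12 lower genes of smallest pooled p with an unadjusted p under 0.05 and the same sign in UC and UU, and up to 3 members of smallest pooled p of each list described.

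Alternatives covered the pseudocount (1, 128), the brightness filter (none, dimmest 60%), median centring, quantile normalization, means over probe sets, the 3-group variance model, array weights, no trend, the replicate number as a block and each array left out. Fits without arrays low in Gpx5, with Xist signal or of high 3'/5' ratio, and with the epididymis level, the liver level or the ratio as covariates, were added after seeing the data. The platform's probe sequences, scan dates and litters were not used here. Promoter windows were those of RefSeq (GRCm38.p6). Figures were drawn with matplotlib 3.10.9.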

Additional observations from a re-analysis of the deposited data

Results flagged for a closer look

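In 303 groups of 4 or 5 arrays, 1 array lay far from the rest of its group for 21 values (6.93%), where chance flags about 1 in 20. UU replicate 3, which had the highest 3'/5' ratio, held 8 of them, with signals of 3285 for Cysrt1 and 7151 for Srsf10 above the other UU arrays, and of 2344.5 for Wdr43, 1678 for Prdx3, 1120 for Lama4, 734 for Crat, 922.5 for Lgmn and 2041 for Gnb1 below them. CC replicate 2, an array low in Gpx5 and with Xist signal, held 4, at 2037 for Nr4a1 and 4388 for C1ra, above the other controls, and at 8618 for Srebf1 and 911 for Hsph1, below them. CC replicate 4 was at 100199.5 for Scd1 and 2853 for Pecam1, both high, and at 1736 for Cks2, low.

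The remaining values were single ones. CC replicate 1 was at 727 for Mcm10 and CC replicate 5 at 1405 for Rrm2b, both below the other controls. UC replicate 2 was at 803 for Pola1, low, and at 4857 for Foxo1, high, UC replicate 4 at 576 for Per1, low, and UU replicate 1 at 5394 for Foxo1, high. The causes were not tested.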

How the results depend on the processing

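Called genes numbered 0 in each alternative run except the one without UC replicate 5, where Sirt2 was called lower (range 0 to 1 with each array left out). The 652 genes at an unadjusted p under 0.05 became 979 with no brightness filter, 1025 with array weights, 324 without the 3 arrays of highest 3'/5' ratio, 264 with that ratio as a covariate and 471 to 893 with each array left out. Genes higher in both UC and UU (91) numbered 142, 143, 36, 44 and 63 to 110 in the same order, and 54 with means over probe sets. Genes lower in both (49) numbered 75 with means over probe sets, 88 with array weights, 75 without the 2 arrays with Xist signal, 15 without the 3 high-ratio arrays, 17 with the ratio as a covariate and 25 to 85 with each array left out. The 18 genes with no overlap above became 6 with means over probe sets, 153 without the 4 arrays low in Gpx5, 45 without the 2 with Xist signal and 19 to 33 with each array left out. The 5 below became 10 with no filter, 3 with median centring, 11 with means over probe sets, 139, 37 and 5 to 21. Fewer arrays make such separation easier by construction, and no filter tests more genes. The cause of the other changes was not tested. Gene differences that turned sign were Hspa8 (-0.05), Hsp90aa1 (-0.21), Fdft1 (0.00) and Uap1 (0.01) with means over probe sets, Srebf2 (0.05) and Pik3ca (-0.01) with the ratio as a covariate, and Hspd1 (0.00 without CC replicate 2, range -0.13 to 0.00 with each array left out). Hspe1, at -0.01, ran from -0.11 to 0.14 with each array left out, was at 0.14 without CC replicate 2 and without the 2 arrays with Xist signal, and at 0.01 to 0.03 in 7 other settings (0.01, 0.02 or 0.03). With the replicate block there were 89 higher and 47 lower genes, 72 and 33 of them shared with those above. Of 13 same-numbered pairs 6 were correlated over 0.1 (range -0.32 to 0.49), with 0.42, 0.48 and 0.49 for replicates 1, 2 and 3 of CC and UC. Different-numbered pairs were not compared, so these values cannot tell whether replicate numbers pair the samples. Dim probe sets and the 14 arrays limit what can be seen.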
